A study of Mus musculus with 6 samples.

Results

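The ILK, PINCH, parvin and kindlin complex was followed through the 9 mouse genes that encode its core: Ilk, the PINCH genes Lims1 and Lims2, the parvin genes Parva, Parvb and Parvg, the PINCH-bound Ras suppressor gene Rsu1, and the kindlin genes Fermt2 and Fermt3. They were picked by gene name, for their known place in the complex, from the 54532 genes counted, with earlier results of these data known. All 9 were among the 14624 genes that had enough counts to be tested. Wild-type mouse BMSCs, the primary stromal cells that adhere from bone marrow and can turn into bone-forming osteoblasts, were kept for 7 days in osteogenic medium with dexamethasone, ascorbic acid and β-glycerophosphate, a medium that both groups shared. The Ni group also received 0.1 μM nickel ions, the control group received the vehicle, and each group had 3 libraries that the submitters describe as independent biological replicates. The dexamethasone concentration given in the sample labels differs from that in the study's methods.

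Integrins are the receptors that tie the cytoskeleton of a cell to the matrix around it, and kindlins bind the tails of their β chains to help switch them on. ILK is a pseudokinase, a kinase-like protein that serves as a scaffold: it binds a PINCH protein at one end and a parvin at the other, and the parvin in turn binds actin. Several of these proteins come in a form typical of stromal cells and a form typical of blood cells. Kindlin-2 (Fermt2) and α-parvin (Parva) are widely expressed in mesenchymal cells, whereas kindlin-3 (Fermt3) and γ-parvin (Parvg) belong mainly to leukocytes and platelets.

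In the nickel comparison the stromal forms and Ilk had higher values and the leukocyte forms lower values, but no member passed the test over all genes. Fermt2 and Parva were higher in the Ni libraries by 1.47-fold and 1.28-fold, Fermt3 and Parvg were lower by 1.38-fold and 1.33-fold, and Ilk was higher by 2.62-fold from very few reads. Lims1, Parvb and Rsu1 had fold changes near 1. A single control library, replicate 3, had values of Fermt2, Parva and Fermt3 within or beside those of the Ni libraries.

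The start regions of the kindlin pair are shown because these genes had opposite signs in every fit run here. The same held for Parva and Parvg, but Parva had no start region in the source used. Windows of 250 bases upstream of the annotated start were taken from RefSeq on build GRCm38.p6, and 7 of the 9 members had one, all but Parva and Lims2. The letters below are on the strand of the gene, 5′ to 3′, and capitals mark matches on either strand to GGGCGG, the Sp1 box, or to TGTGGT, the core recognised by RUNX factors. For Fermt2 (chr14:45530119-45530315) the last 53 bases of the window are not printed, since GENCODE M21 places them in the first exon. For Fermt3 (chr19:7019470-7019719) the whole window is printed.
Fermt2: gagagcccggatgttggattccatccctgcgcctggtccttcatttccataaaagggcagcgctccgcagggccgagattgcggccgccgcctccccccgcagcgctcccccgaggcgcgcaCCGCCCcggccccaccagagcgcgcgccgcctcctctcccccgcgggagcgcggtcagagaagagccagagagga
Fermt3: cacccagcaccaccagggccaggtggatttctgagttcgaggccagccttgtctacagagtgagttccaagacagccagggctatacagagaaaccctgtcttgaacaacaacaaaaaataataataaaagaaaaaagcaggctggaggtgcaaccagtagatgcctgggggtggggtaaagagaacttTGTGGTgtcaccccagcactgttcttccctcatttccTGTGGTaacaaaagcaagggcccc

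The Fermt2 window was 76.0% G and C and held 31 CG pairs, whereas the Fermt3 window was 50.0% G and C and held 1 CG pair. Over all 32851 windows of 27025 genes the medians were 52.4% and 6 pairs. GGGCGG occurred 5 times in the full Fermt2 window, beginning 128, 51, 34, 21 and 9 bases before the RefSeq start, and was not in the Fermt3 window. Of these, 1 lies in the printed bases and 4 in the 53 bases that GENCODE M21 places in the first exon. At least 1 such match was present in 32.7% of all windows, and 5 or more in 1.93%. TGTGGT occurred at 61 and 24 bases before the start of Fermt3 and was not in the Fermt2 window. It was present in 14.0% of all windows, and 2 or more times in 1.27%. Neither window held AGGAAGT, an ETS and PU.1 core found in 7.69% of windows, CCAAT, found in 33.8%, or TATAAA, found in 12.4%, each searched on both strands. Neither window held both GGGCGG and TGTGGT, so matches to the pair could not overlap. Neither motif was particular to a kindlin. Among the other members, GGGCGG was in a window of Ilk (3 matches), Lims1 (3), Rsu1 (2), Parvb (2) and the leukocyte form Parvg (2). TGTGGT was in windows of Ilk and Parvg. A match describes the letters only, and binding of any factor was not measured.

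The libraries held between 16101033 and 18642504 counts. Control replicate 3 stood closer to the Ni libraries (mean distance 0.0131, as 1 minus Pearson's r of log2 CPM) than to the other controls (0.022), so each member's result is given with and without it. That library was singled out from these same data. Leaving out the control most like the Ni libraries tends to widen the differences and to narrow the spread of the controls. The p-values without it are therefore descriptions and no separate support. The cell type label was checked against marker genes. Stromal markers were present in every library, with Col1a1, the main chain of type I collagen, at 4506 to 14380 CPM (counts scaled to library size after TMM normalization). Leukocyte markers were abundant as well: Csf1r, the receptor for macrophage colony-stimulating factor, lay at 1763 to 1929 CPM, and Ptprc, the pan-leukocyte antigen CD45, at 310.7 to 472.3 CPM. The 14 macrophage and other leukocyte markers summed to between 25190 and 30150 CPM, against 11920 to 27830 CPM for the 10 stromal markers. The RNA therefore held transcripts of both kinds of cell, and in bulk RNA fewer cells of a type and less RNA per cell cannot be told apart. Neutrophil markers summed to at most 1.86 CPM, B and T cell markers to at most 0.288 CPM and erythroid markers to at most 0.126 CPM. The megakaryocyte and platelet markers, which matter for kindlin-3, summed to between 67.92 and 149.6 CPM, nearly all of it from Pf4 (65.4 to 147.4 CPM), while Itga2b reached at most 2.04 CPM, Gp9 1.89 CPM and Gp1bb 0.0576 CPM.

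The members differed widely in level, which was compared by FPKM, the authors' count scaled by gene length and library size. Fermt3 had the highest FPKM in the controls, at 165.6 ± 46.7 (SD, n = 3), followed by Lims1 at 40.6 ± 2.2 (SD, n = 3) and Parvg at 32.4 ± 2.97 (SD, n = 3). Next came a run of 4 genes whose ranges overlapped from neighbour to neighbour: Parvb with a mean of 16.1, Fermt2 with 14.1, Rsu1 with 11.8 and Parva with 9.05. Lims2 followed at 2.57 ± 0.542 (SD, n = 3) and Ilk at 0.306 ± 0.0738 (SD, n = 3), a value taken over exons of which 89.7% of the bases lie under other genes. In the Ni libraries the first 3 and the last 2 places were held by the same genes. Between them Fermt2, at 20.7 ± 2.59 (SD, n = 3), stood above Parvb, at 15.7 ± 1.15 (SD, n = 3), without overlap, while Parvg and Fermt2 overlapped, as did Parva and Rsu1. The FPKM of Fermt3 rests on a deposited gene length of 2587 bases, whereas its exons in GENCODE M21 cover 5784. At that longer length its mean FPKM would be 74.1 in controls and 53.8 in Ni libraries, still the highest of the 9.

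**Figure D1:**
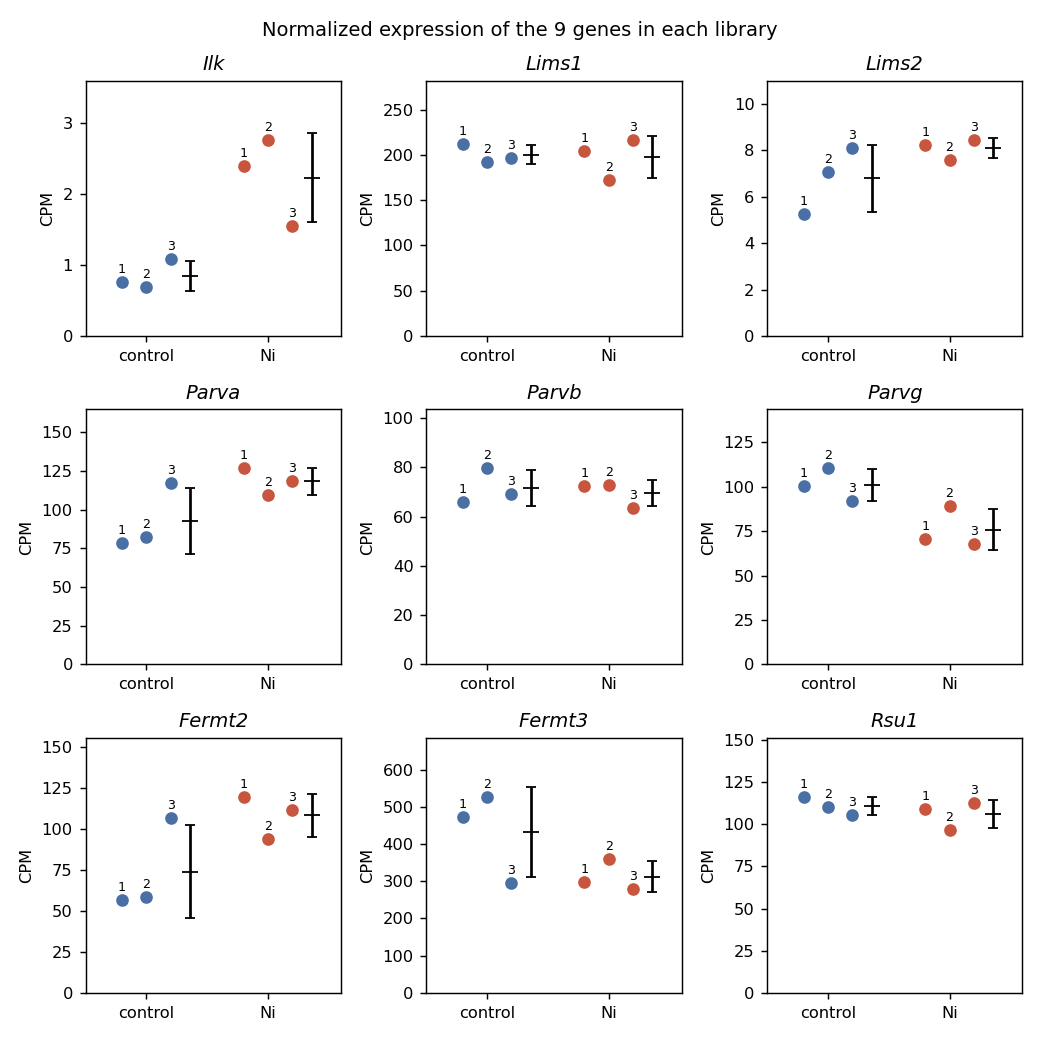
Normalized expression of each of the 9 genes in CPM (y axes from 0, one scale per gene) in the 3 control and 3 Ni libraries; numbers give the replicate and bars the mean and SD. The groups did not overlap for Ilk and Parvg, and control replicate 3 lay with the Ni libraries for Fermt2, Parva and Fermt3.

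No member passed an adjusted p of 0.05 in the quasi-likelihood test of edgeR, adjusted by Benjamini-Hochberg over 14624 genes, and 0% of all genes did. DESeq2 and limma called none of the members either. At an unadjusted p under 0.05, 2 of the 9 members were higher, Ilk and Parva, where 7.59% of all genes were, and 2 were lower, Parvg and Fermt3, where 5.83% of all genes were. For Ilk the 3 Ni libraries lay above the 3 controls, which held for 7.97% of all genes, and for Parvg they lay below, which held for 6.71%. The study had already picked out Ilk as a gene raised by nickel in these same RNA data. Its place in these counts was therefore known beforehand and is no separate support. In all, 4 members had a positive and 5 a negative log2 fold change, with a median of -0.02 against -0.01 over all genes tested. Ilk and Parvg passed the unadjusted threshold with any 1 library left out. Parva and Fermt3 passed it without control replicate 3 or Ni replicate 2, and did not without control replicate 1 (log2 fold changes 0.25 and -0.39), control replicate 2 (0.28 and -0.30), Ni replicate 1 (0.30 and -0.43) or Ni replicate 3 (0.35 and -0.39). The interval of a fold change given below is its 95% interval on the log2 scale. Without control replicate 3, 5 members passed an adjusted p of 0.05, 3 higher and 2 lower, as did 2283 of 15044 genes tested, or 15.2%. With all libraries and no filter on low counts the same 5 members passed, as did 1027 of 25880 genes.

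**Figure D2:**
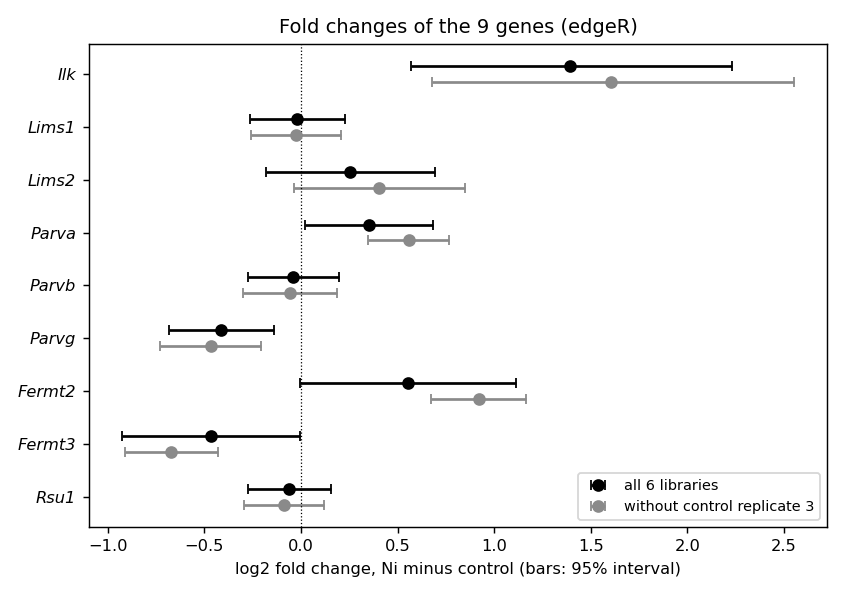
Log2 fold change of each gene, Ni minus control, with its 95% interval from edgeR, over all 6 libraries (black) and without control replicate 3 (grey). Intervals for Lims1, Lims2, Parvb and Rsu1 include 0 in both fits, and that of Fermt2 reaches from -0.01 to 1.11 over all libraries and from 0.67 to 1.17 without the one control.

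Among the kindlins, Fermt2 (GRCm38 chromosome 14, 45458795 to 45530118) was measured at 56.3, 58.6 and 106.5 CPM in control replicates 1, 2 and 3. In the Ni libraries it lay at 119, 93.8 and 112 CPM. Control replicates 1 and 2 were low, and control replicate 3 fell inside the range of the Ni libraries. The log2 fold change was 0.55 (SE 0.24, interval -0.01 to 1.11, adjusted p = 0.376, edgeR). Without control replicate 3 it was 0.92 (SE 0.11, interval 0.67 to 1.17, adjusted p = 0.000275, edgeR).

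Fermt3 (chromosome 19, 6998958 to 7019469), the kindlin whose loss stops integrin activation in platelets and leukocytes, lay at 472, 527 and 295 CPM in the controls. The Ni libraries had 299, 360 and 279 CPM. The 2 highest values were those of control replicates 1 and 2, and control replicate 3 lay between Ni libraries. The log2 fold change was -0.46 (SE 0.20, interval -0.92 to -0.00, adjusted p = 0.371, edgeR), and without control replicate 3 it was -0.67 (SE 0.11, interval -0.91 to -0.43, adjusted p = 0.00159, edgeR). The third kindlin gene, Fermt1, an epithelial form, had 0 counts in all 6 libraries, and 3 counts would have been 0.163 to 0.189 CPM.

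Set against each other in FPKM within each library, Fermt3 exceeded Fermt2 throughout. Fermt2 made up 5.6%, 5.25% and 15.2% of the summed FPKM of the pair in control replicates 1, 2 and 3, and 16.6%, 11.5% and 16.6% in the Ni libraries. Control replicate 3 was again inside the Ni range. By geometric means Fermt3 stood 11.9-fold above Fermt2 in the controls and 5.79-fold above it in the Ni libraries. At the GENCODE M21 exon length of Fermt3, an alternative chosen after seeing the data, these folds were 5.33 and 2.59, and Fermt2 made up 11.7%, 11% and 28.7% in the controls and 30.8%, 22.5% and 30.8% in the Ni libraries. The log2 ratio of Fermt2 to Fermt3 was -3.58 ± 0.95 (SD, n = 3) and -2.53 ± 0.36 (SD, n = 3), a difference of 1.04 with overlapping groups, which was 1.59 without control replicate 3. The longest coding sequences of the pair were identical at 62.7% of aligned bases, and no stretch of 50 bases of any member occurred in another member, so reads of that length could be told apart between paralogs.

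**Figure D3:**
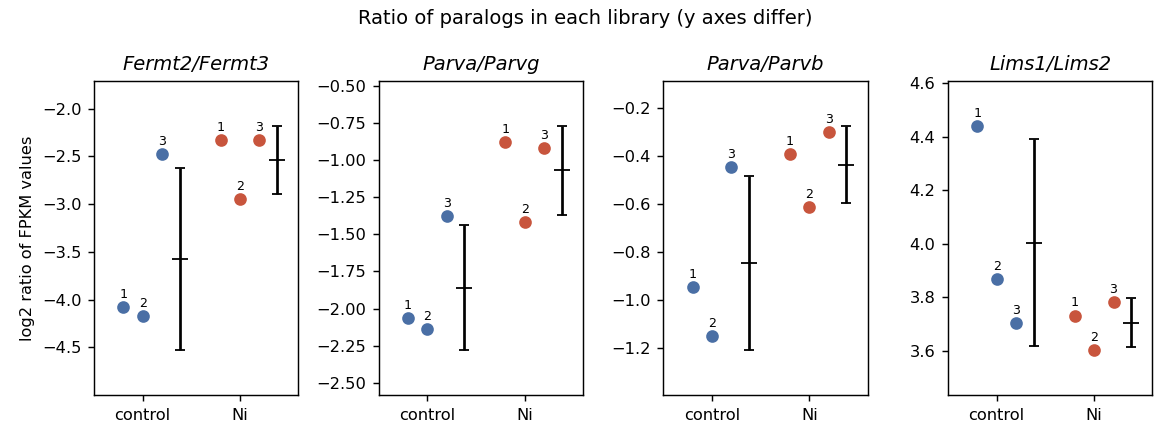
Log2 ratio of FPKM values of paralogs in each library (y axes differ between panels); numbers give the replicate and bars the mean and SD of each group. Control replicates 1 and 2 lie below all Ni libraries for Fermt2/Fermt3, Parva/Parvg and Parva/Parvb, and control replicate 3 lies among them.

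Parvins link ILK to actin. Parva (chromosome 7, 112427505 to 112591692) followed the pattern of Fermt2, with 78.6, 82.5 and 117 CPM in the controls and 127, 109.5 and 119 CPM in the Ni libraries. Control replicate 3 was again the one control inside the Ni range. The log2 fold change was 0.35 (SE 0.15, interval 0.02 to 0.68, adjusted p = 0.358, edgeR), and it was 0.56 (SE 0.10, interval 0.35 to 0.77, adjusted p = 0.00206, edgeR) without that library.

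Parvg (chromosome 15, 84324026 to 84342978), the leukocyte parvin, lay at 100.2, 110.3 and 92.1 CPM in the controls and at 70.7, 88.9 and 68.0 CPM in the Ni libraries. All controls were above all Ni libraries, by a narrow margin between control replicate 3 and Ni replicate 2. Its log2 fold change was -0.41 (SE 0.12, interval -0.68 to -0.14, adjusted p = 0.293, edgeR). It was -0.47 without control replicate 3 (SE 0.12, interval -0.73 to -0.21, adjusted p = 0.0202, edgeR), and of the 5 members that passed in that fit its value moved least.

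Parvb (chromosome 15, 84232043 to 84315688), which encodes β-parvin, is the neighbour of Parvg on the same strand. It lay at 65.8, 79.6 and 69.2 CPM in the controls and at 72.3, 72.9 and 63.5 CPM in the Ni libraries. The groups overlapped, and the log2 fold change was -0.04 with an interval from -0.28 to 0.20 (adjusted p = 0.902, edgeR), which was -0.06 without control replicate 3. Differences within that interval are not excluded by these data.

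Within the parvin family the shares of summed FPKM are tied to each other, since a lower share of Parvg by itself raises those of Parva and Parvb. Parvg held 58.9%, 57.7% and 52.3% of the summed parvin FPKM in the controls and 44.2%, 51.3% and 45.8% in the Ni libraries, without overlap. Parva held 14.1%, 13.1% and 20.2% in the controls and 24.1%, 19.2% and 24.3% in the Ni libraries, and here control replicate 3 overlapped. Parvb held 27.1%, 29.1% and 27.5% in the controls and 31.6%, 29.4% and 29.9% in the Ni libraries, also without overlap, although its CPM overlapped. The log2 ratio of Parva to Parvg was -1.86 ± 0.42 (SD, n = 3) in controls and -1.07 ± 0.30 (SD, n = 3) in Ni libraries, so that Parvg stood 3.63-fold and 2.10-fold above Parva. The summed FPKM of the 3 parvins was 57.5 ± 3.47 (SD, n = 3) and 51.6 ± 3.79 (SD, n = 3).

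The PINCH proteins are adaptors made of LIM domains that hold ILK and, through RSU1, further partners. Lims1 (chromosome 10, 58323466 to 58424691), which encodes PINCH-1, lay at 212, 192 and 197 CPM in the controls and at 205, 172 and 217 CPM in the Ni libraries. The lowest and the highest library were both Ni libraries. The log2 fold change was -0.02 with an interval from -0.27 to 0.23 (adjusted p = 0.96, edgeR), and it was -0.03 without control replicate 3.

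Rsu1 (chromosome 2, 13076821 to 13271415), whose product binds PINCH-1, had 116, 110.5 and 106 CPM in the controls and 109, 96.7 and 113 CPM in the Ni libraries. The groups overlapped. Its log2 fold change was -0.06 with an interval from -0.28 to 0.15 (adjusted p = 0.822, edgeR), or -0.09 without control replicate 3. Across the 6 libraries the log2 CPM of Rsu1 and Lims1 had a Pearson r of 0.907, given as a description of libraries that share depth and makeup.

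Lims2, which encodes PINCH-2, was the scarcer PINCH gene. It lay at 5.25, 7.05 and 8.10 CPM in the controls and at 8.25, 7.60 and 8.45 CPM in the Ni libraries. Control replicate 1 was lowest, and control replicate 3 lay between Ni libraries. The log2 fold change was 0.25 (SE 0.20, interval -0.18 to 0.69, adjusted p = 0.603, edgeR), and without control replicate 3 it was 0.41 (SE 0.20, interval -0.04 to 0.85, adjusted p = 0.224, edgeR). Lims2 made up between 4.4% and 7.6% of the summed FPKM of the PINCH pair.

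Ilk (chromosome 7, 105736592 to 105742925), the scaffold that every other member meets directly or through a partner, had the fewest reads. It was counted 14, 11 and 18 times in control replicates 1, 2 and 3, or 0.765, 0.693 and 1.08 CPM. In the Ni libraries it was counted 44, 48 and 28 times, or 2.39, 2.76 and 1.55 CPM. All Ni libraries lay above all controls. The exact 95% Poisson interval of Ni replicate 3 (18.6 to 40.5 counts), which covers counting error only, overlapped those of control replicates 1 (7.65 to 23.5 counts), 2 (5.49 to 19.7 counts) and 3 (10.7 to 28.4 counts). The intervals of Ni replicates 1 (32 to 59.1 counts) and 2 (35.4 to 63.6 counts) overlapped none of the controls. The log2 fold change was 1.39 (SE 0.37, interval 0.57 to 2.23, adjusted p = 0.268, edgeR), and without control replicate 3 it was 1.61 (SE 0.43, interval 0.68 to 2.55, adjusted p = 0.0241, edgeR). On the log2(FPKM + 1) scale, which understates changes of low genes, it was 0.46.

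The place of Ilk in the order of levels is uncertain, because most of its exons overlap other genes. Of its 2744 annotated exon bases, 2461, or 89.7%, lie under exons of 2 genes on the opposite strand in GENCODE M21. Taf10, which encodes a subunit of the general transcription factor TFIID, covers 2106 of them, and Rrp8, which encodes a ribosomal RNA processing factor, covers 355. None of the 1644 coding bases of Ilk is outside them, and the 283 bases that are unshared (105736782 to 105737064) are untranslated. The other members had 6.14% (Lims2), 1.54% (Fermt3) or no exon bases under another gene. The library protocol in the labels describes no step that marks strand. Without strand, a read over such bases cannot be told apart between the genes unless it spans an exon junction particular to its own gene. Of the 50-base stretches of Ilk transcripts, 69.3% also occur, on one strand or the other, in transcripts of other genes, namely Taf10, Rrp8 and the pseudogene Gm6263, which had 0 counts in all 6 libraries.

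If the Ilk counts are spread over the 283 unshared bases alone, they come to 2.70, 2.45 and 3.82 CPM per kilobase in the controls and 8.44, 9.76 and 5.47 in the Ni libraries. The order of the groups is the same by construction. By the same measure Lims2 lay between 1.83 and 2.94 CPM per kilobase over the 6 libraries, so that the order of Ilk and Lims2 depends on the bases used, and Lims1 lay between 35.2 and 44.3. The genes on the other strand were counted far more often: the controls held 995, 1121 and 1075 counts of Taf10, against 941, 1300 and 879 for Ni, and 367, 373 and 476 counts of Rrp8, against 435, 403 and 471 for Ni. Their log2 fold changes were -0.12 for Taf10 and 0.02 for Rrp8. How the overlap enters the Ilk difference was not tested.

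**Figure D4:**
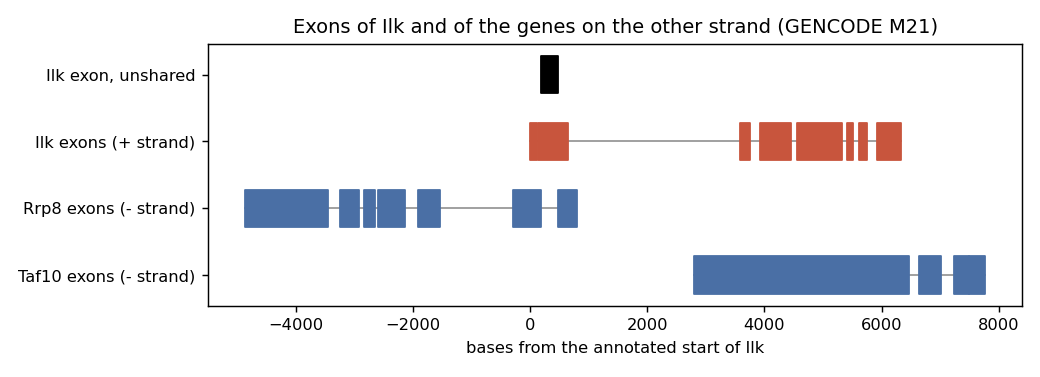
Exons of Ilk and of Rrp8 and Taf10 on the opposite strand, in bases from the annotated start of Ilk (GENCODE M21); the black block marks the Ilk exon bases under neither. Of 2744 Ilk exon bases 283 are unshared, in 1 block near its 5′ end.

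Marker genes of the stromal and leukocyte cells were set beside the members. The summed stromal markers were 11920, 12640 and 18640 CPM in the controls and 27830, 23050 and 26500 CPM in the Ni libraries. At an unadjusted p under 0.05, 4 of the 10 genes were higher and 1, Cxcl12, was lower. Over all genes 7.59% were higher and 5.83% lower at that threshold, and no stromal, osteoblast or leukocyte marker passed an adjusted p of 0.05 in edgeR's test. The collagen genes Col1a1 and Col1a2 had log2 fold changes of 1.13 and 0.97, whereas Pdgfra had 0.07, Thy1 -0.07 and Lepr -0.13. The 6 osteoblast markers were higher at that threshold in every case, with sums of 1151, 1048 and 2917 CPM and of 5946, 3218 and 6450 CPM, and control replicate 3 was again nearest to the Ni libraries. The sums of the 14 leukocyte markers overlapped, at 25710, 26220 and 30150 CPM and at 26450, 25190 and 26120 CPM, and were highest in control replicate 3. Lyz2 alone lay between 9616 and 15100 CPM over the 6 libraries, so a single gene weighs heavily in the order of these sums. Of the 14 leukocyte markers, 4 were lower at an unadjusted p under 0.05 and none was higher. The 4 were Ptprc (log2 fold change -0.36), Itgam (-0.40), Tyrobp (-0.45) and Coro1a (-0.65). Csf1r (0.01), Cd68 (0.05) and the macrophage lysozyme gene Lyz2 (0.02) had values near 0. The rest were Adgre1 (-0.35), Laptm5 (-0.29), Cd14 (-0.19), C1qb (-0.16), C1qa (-0.14), Fcgr1 (-0.14) and Mrc1 (0.24). The median of the 14 was -0.17, with 4 positive values. For 3 of them all Ni libraries lay below all controls, which held for 6.71% of all genes. The part of the makeup of the cultures in the values of Fermt2, Parva, Fermt3 and Parvg was not tested.

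Ptprc lay at 472.3, 432.4 and 317.3 CPM in the controls and at 319.1, 310.7 and 324.8 CPM in the Ni libraries, the same arrangement as for Fermt3. Itgb2, which encodes the β2 integrin of leukocytes that kindlin-3 binds, was arranged likewise, at 1241, 1345 and 738 CPM in the controls and at 772.5, 798 and 704.2 CPM in the Ni libraries. Its log2 fold change was -0.55 (adjusted p = 0.334, edgeR). Itgb1, which encodes the β1 integrin of most adherent cells, lay at 1018, 944.6 and 1309 CPM and at 1307, 1153 and 1313 CPM, with a log2 fold change of 0.21 (adjusted p = 0.562, edgeR). Csf1r, by contrast, lay within -0.08 to 0.05 of its mean on the log2 scale.

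**Figure D5:**
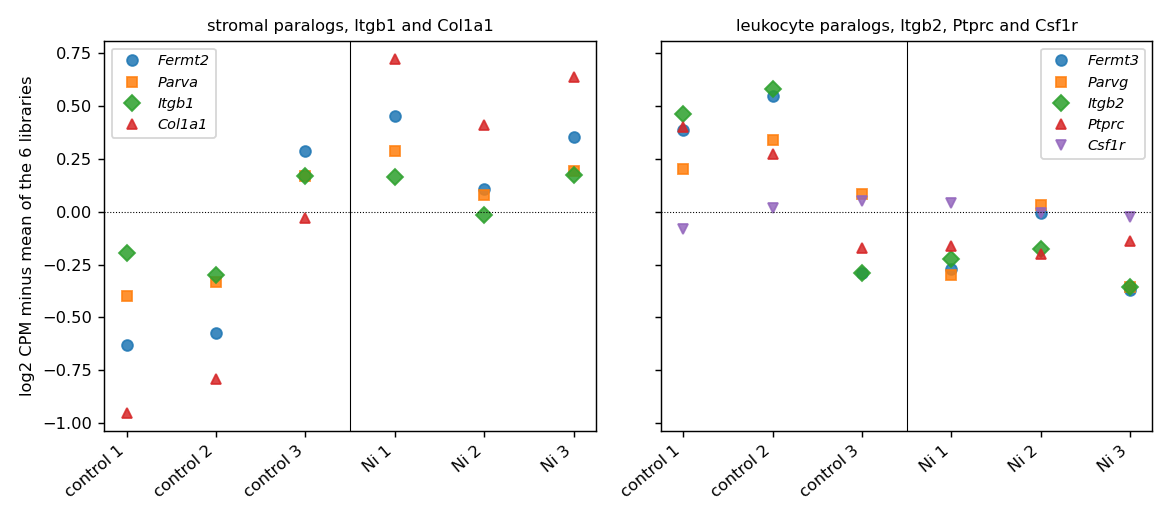
Log2 CPM of each gene in each library minus its mean over the 6 libraries (0 on the dotted line), for Fermt2, Parva, Itgb1 and Col1a1 (left) and for Fermt3, Parvg, Itgb2, Ptprc and Csf1r (right). Fermt2 lay at -0.63 and -0.57 in control replicates 1 and 2 and at 0.29 in control replicate 3, and Csf1r stayed between -0.08 and 0.05.

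The wider pathway was described through lists of its other proteins. Of 16 direct partners of ILK, PINCH, parvin or kindlin, 1 was higher and 2 were lower at an unadjusted p under 0.05, and 13 did not pass, where 7.59% of all genes were higher and 5.83% lower. The median log2 fold change was 0.03 with 9 positive values. The higher one was Tgfb1i1, the adaptor Hic-5, with a log2 fold change of 0.34. The lower ones were Itgb2 and Tmsb4x, the actin-binding thymosin β4, at -0.65. Actn1, an α-actinin, and Itgb1 did not pass.

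Of 30 talin, vinculin and focal adhesion genes, 7 were higher, 3 were lower and 20 did not pass at that threshold, beside the same shares over all genes of 7.59% and 5.83%. The median was 0.14, with 19 positive values, against -0.01 over all genes. Those with the smallest unadjusted p were Tns2 (log2 fold change 0.36), a tensin, and Kank2 (0.31), a talin-binding protein. They were followed by the tyrosine kinase gene Src (0.43), by Kank1 (0.58), by Tes (-0.49) and by Vasp (-0.49), which encodes an actin filament elongation factor. None of the 16 or 30 genes passed an adjusted p of 0.05 in edgeR's test. Both counts moved with single libraries. Without control replicate 3, 4 direct partners were higher and 3 lower, and 13 focal adhesion genes were higher and 5 lower, in a fit where 15.2% of all genes were higher and 12.2% lower. No direct partner was lower without control replicate 1, control replicate 2 or Ni replicate 3, 1 was lower without Ni replicate 1, and none was higher without control replicate 1. The higher focal adhesion genes were 1 without control replicate 1, 3 without control replicate 2, 4 without Ni replicate 1 and 3 without Ni replicate 2, and none was lower without either of these controls or without Ni replicate 1 or 3.

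The genes most like each member were read from Pearson's r of log2 CPM over the 6 libraries, among 9241 other protein-coding genes with a mean of at least 10 CPM. With 6 points that share library makeup such values are descriptions, and for Fermt3, Fermt2 and Parva as many as 915, 899 and 872 genes exceeded 0.9. Fermt3 was like Efhd2 and Trpm2, each with r of 0.999. Fermt2 was most like Ldha (0.997), Nt5e (0.996), which encodes the stromal surface antigen CD73, and Vcpkmt (0.996). Parva was like Sidt2 (0.997) and Rbfox2 (0.995), and Parvg most like Cmc1 (0.996), Cd209f (0.993) and Uqcr10 (0.992).

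Fewer genes followed the other members. Ilk, with 147 genes over 0.9, was most like Gtf2ird1 (0.994), Lrp4 (0.989) and Aldh18a1 (0.984). Lims1 was most like Hnrnph2 (0.996), Plscr4 and Rbm7 (0.992 each), and Rsu1 like Zeb2, Rap1a (0.993 each) and Tram1 (0.989). Lims2 was most like Camsap1 (0.998), Rac3 (0.994) and Smpd1 (0.99). Parvb, with 83 genes the least accompanied, was most like Tle2 (0.995), Rpl13 (0.99) and Dopey2 (0.987). Among the members themselves the r of Parva and Fermt2 was 0.998 and that of Fermt2 and Fermt3 was -0.969.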

How the data were processed

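RNA from 3 control and 3 Ni cultures was sequenced as mRNA libraries, and the authors deposited raw counts per gene and FPKM values per gene; the labels name build GRCm38, and the aligner, counter and strand setting are not given in the sources used here. Groups followed the sample labels. Counts were filtered by filterByExpr, normalized by TMM and tested with edgeR 4.0.16 (glmQLFit, robust, and glmQLFTest; prior count 0.125) in R 4.3.3, with Benjamini-Hochberg adjustment over all genes tested. SEs are the unshrunk coefficient over the root of the F statistic. Overlap and likeness used log2 CPM with a prior count of 2. Levels between genes and paralog ratios used the deposited FPKM.

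Members and lists were chosen with earlier results of these data known. Named were all members, Fermt1, the genes over Ilk exons, list genes with an unadjusted p under 0.05 (up to 6 per list by smallest p) and the 3 genes most like each member, of which some are not reported here; marker genes, Itgb1, Actn1 and Gm6263 were named after their values were seen. Further marker lists gave sums of 37.34 to 70.23 CPM (endothelial), 683.2 to 1411 CPM (smooth muscle) and 413.7 to 831.9 CPM (adipocyte). A single gene made up most of each sum: Pecam1 (23.53 to 54.23 CPM), Acta2 (656.7 to 1347 CPM) and Lpl (380.1 to 796.9 CPM). Alternatives were DESeq2 1.42.0, limma 3.58.1 on log2(FPKM + 1) and log2(FPKM + 0.1), other filters, a replicate block and leaving out each library. Scripts were tested on simulated data. The replicates of a group differed by more than sampling noise (chi-square per degree of freedom 4.37 to 43.6). Exon overlap and coding identity came from GENCODE M21 on GRCm38 (Biopython 1.88), whose coordinates matched those deposited for all members but Lims2. With 3 libraries against 3 an exact two-sided permutation test cannot give a p below 0.1.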

Additional observations from a re-analysis of the deposited data

How the results depend on the processing

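Of 135 alternative fold changes of the members, 130 kept their sign; the 5 that reversed were near 0. Lims1 was 0.026 without control replicate 1 and 0.0752 without Ni replicate 2, Parvb 0.0435 without control replicate 2 and 0.0219 without Ni replicate 3, and Rsu1 0.00566 without Ni replicate 2; their lowest values, each with 1 library left out, were -0.0884, -0.0965 and -0.105. Leaving out each library in turn gave log2 fold changes of 1.21 to 1.61 for Ilk, 0.25 to 0.56 for Parva, -0.54 to -0.34 for Parvg, 0.39 to 0.92 for Fermt2 and -0.67 to -0.30 for Fermt3, and adjusted p-values for members under 0.05 only without control replicate 3. The genes at an adjusted p under 0.05 then numbered 0 to 2283, with 13 without Ni replicate 2, and the members 0 to 5. Genes at an unadjusted p under 0.05 ranged from 599 to 2285 higher and from 269 to 1840 lower, members from 1 to 3 higher and from 1 to 2 lower, direct partners from 0 to 4 higher and from 0 to 3 lower, and focal adhesion genes from 1 to 13 higher and from 0 to 5 lower. With no filter on low counts 1027 genes passed an adjusted p of 0.05 in edgeR's test and 1768 were higher and 1289 lower unadjusted, over 25880 genes. The 5 members that passed were Ilk (1.40, adjusted p = 0.0253), Parva (0.36, adjusted p = 0.0444), Parvg (-0.40, adjusted p = 0.0206), Fermt2 (0.56, adjusted p = 0.0353) and Fermt3 (-0.45, adjusted p = 0.00733). DESeq2 called 256 genes, none of them members, with 2 direct partners higher unadjusted, and limma on log2(FPKM + 1) called 2. The members lower at an unadjusted p under 0.05 were 1 with at least 10 counts in every library and in each limma fit, and the members higher were 1 in limma with no filter. The cause of these shifts was not tested. The replicate numbers are not stated to pair the cultures, so the main fit had no replicate block. The same-number correlations of the replicates were 0.0104, 0.256 and 0.138, which do not settle whether cultures were paired. With a replicate block 315 genes and 1 member, Parvg (-0.42, adjusted p = 0.0416, edgeR), passed, and 2 direct partners were higher unadjusted. The Ni minus control differences of the log2 ratios kept their sign; with 1 library left out they ranged from 0.74 to 1.59 (Fermt2/Fermt3), 0.65 to 1.03 (Parva/Parvg), 0.26 to 0.61 (Parva/Parvb) and -0.45 to -0.08 (Lims1/Lims2), with the values nearest 0 without control replicate 2 for the first 3 and without control replicate 1 for the last, and those farthest from 0 without control replicate 3. For Ilk, depth and exon overlap limit the value.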
